A study of Homo sapiens with 6 samples.

Results

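Protein N-glycosylation and the quality control of the resulting glycoproteins were described here through 36 genes in OE33, a human cell line established from an adenocarcinoma of the oesophagus and epithelial in type. The genes were taken by symbol from GENCODE 29 and are 36 of the 58051 genes in the deposited count table. They were chosen by function, with earlier results of these data known, and all 36 had enough counts to be tested. TUSC3 met the filter on low counts only through its APX2009 libraries, and it is counted among the genes that rose. RNA sequencing of polyadenylated RNA compared 3 libraries of OE33 cells given 15 µM APX2009 for 24 h with 3 libraries of untreated OE33 cells. The compound APX2009 inhibits APE1, a protein of DNA repair, in its other role of activating transcription factors by redox. The labels describe the replicates as independent biological ones and name no vehicle for the untreated cells, and all libraries come from a single cell line.

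In this pathway a glycan is built on the lipid carrier dolichol at the membrane of the endoplasmic reticulum (ER), beginning on the cytosolic face and finishing in the lumen. Oligosaccharyltransferase then moves the whole glycan to asparagine residues of proteins entering the ER. Glucosidases trim it, the lectins calnexin and calreticulin bind the trimmed form while the protein folds, and UGGT returns a glucose to proteins that are still misfolded so that they bind again. Secretory epithelia such as glandular tumours pass many glycoproteins, mucins included, through this route.

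Of the 36 genes, 18 were higher and 1 was lower in APX2009 cells at an edgeR adjusted p under 0.05, which is the threshold for every use of rose and fell here. Across all 14773 genes tested, 17.2% were higher and 17.4% lower, 34.7% in either direction. The median log2 change of the 36 genes was 0.25, against 0.02 for all genes tested. Among genes averaging at least 10 CPM (the counts-per-library scale used throughout, with libraries scaled by TMM), 16 of 31 members were higher and 1 lower, beside 20.3% and 22.3% of all such genes. CPM are shares of a library, so a change in transcript per cell and a change in the cells or RNA around it cannot be told apart. When libraries were scaled by the total of the ERCC spike-in transcripts, only TUSC3 passed and no called member turned direction. The median size of the log2 change of the 19 called genes was then 0.65, against 0.53 with TMM, and their median standard error (SE) was 0.50, against 0.08 with TMM.

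**Figure D1:**
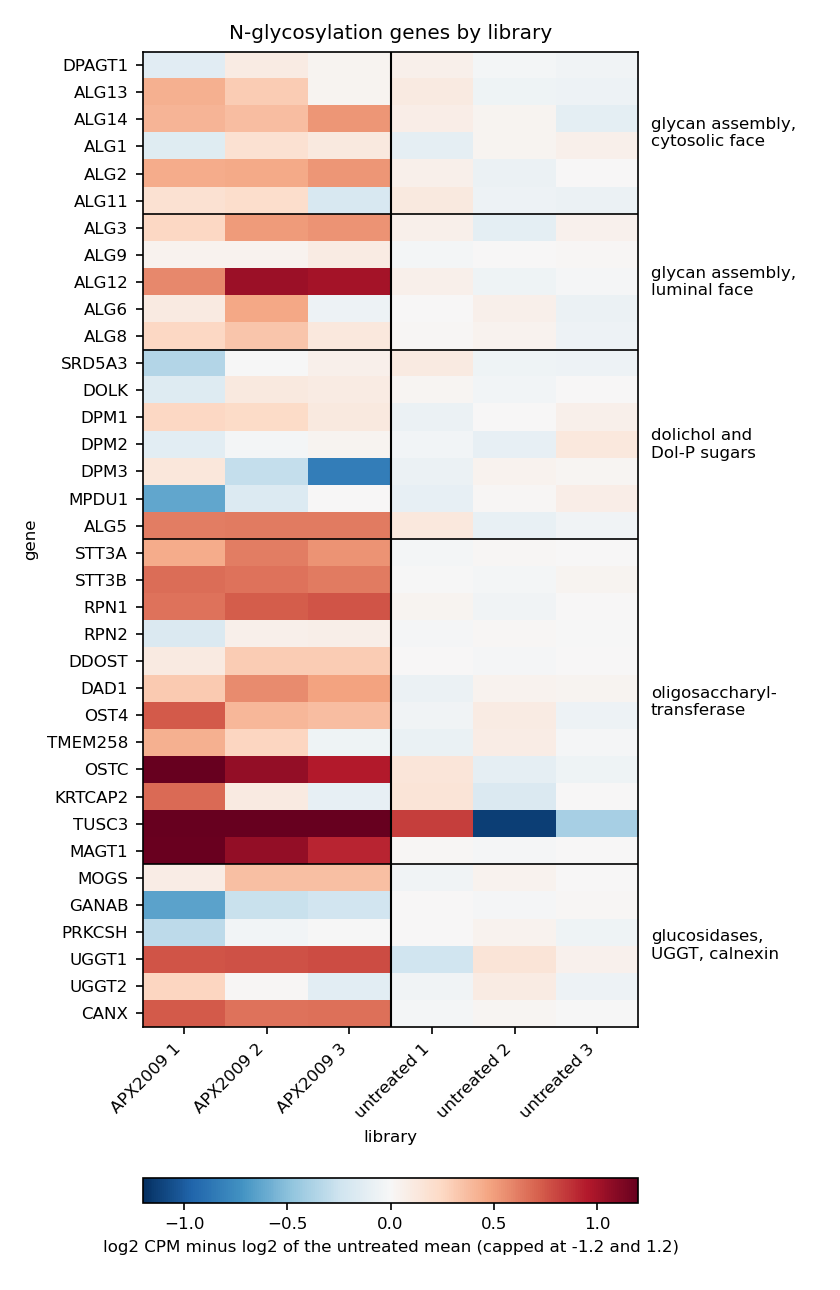
Each row is a gene, each column a library, with APX2009 libraries left of untreated ones, and colour gives log2 CPM minus the log2 of the untreated mean, capped at the ends of the colour bar. Rows are grouped by role. Red rows are most frequent in the oligosaccharyltransferase block, where 9 of 12 genes rose, beside 17.2% of all genes tested.

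Gene counts per library ran from 21158750 to 26111656. APX2009 replicate 1 stood apart from the other libraries: ERCC transcripts took 0.315% of its counts, against 0.752% and 0.734% in the other APX2009 libraries and 0.480% to 0.564% in untreated ones. It had counts for 25015 genes, where the others had 21845 to 22446. It was the lowest of the 3 APX2009 libraries for 21 of the 36 genes and the highest for 11. All 7 epithelial markers had counts in every library, with a summed level of 14605 to 18217 CPM in APX2009 cells and 26025 to 26745 CPM in untreated cells. KRT19 took most of that sum, at 11303 CPM in APX2009 cells and 18555 CPM in untreated cells on average; KRT8, KRT18, KRT19 and CDH1 fell, while EPCAM, CLDN4 and CLDN7 did not pass. Fibroblast markers summed to 9.11 to 19.2 CPM in APX2009 cells and 8.35 to 12.7 CPM in untreated cells, with THY1 at 0 counts in every library. COL1A1 took most of that sum, at 11.3 CPM in APX2009 cells and 10.2 CPM in untreated cells on average, and did not pass. Of these 7 markers 6 had counts in APX2009 replicate 1 and at most 2 in any other library; COL1A2, COL3A1 and DCN had 26, 48 and 42 counts there and 0 in the other 5 libraries. The leukocyte markers, with CD3E at 0, summed to 6.80 to 7.90 CPM in APX2009 cells and 6.08 to 6.79 CPM in untreated cells. Of them CD68 rose, at 3.17 CPM in APX2009 cells and 1.39 CPM in untreated cells on average (edgeR adjusted p = 0.00513). CD14 and LYZ did not pass, and the rest were not tested. Endothelial markers summed to 0.0889 to 2.17 CPM in APX2009 cells and 0.0445 to 0.442 CPM in untreated cells. The part of APX2009 replicate 1 in the results was not tested except where values without it are given.

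The ER stress response element (ERSE, the letters CCAAT and, after 9 bases of any kind, CCACG) is a known binding motif of the unfolded protein response factors ATF6 and XBP1. It was searched on both strands of RefSeq promoters, which run from 250 bases before to 50 bases after each start site (GRCh38.p14, 300 bases each). Of 32 members with a promoter in that table, 2 held the motif, ALG12 and CANX, against 0.0916% of the 27305 genes there. Promoters of MOGS, RPN1, STT3B and TUSC3 were not in the table. Both sequences are shown because they carry the motif, whose fixed letters CCAAT and CCACG are in capitals, and both genes rose.
ALG12, chr22:49918389-49918688, minus strand: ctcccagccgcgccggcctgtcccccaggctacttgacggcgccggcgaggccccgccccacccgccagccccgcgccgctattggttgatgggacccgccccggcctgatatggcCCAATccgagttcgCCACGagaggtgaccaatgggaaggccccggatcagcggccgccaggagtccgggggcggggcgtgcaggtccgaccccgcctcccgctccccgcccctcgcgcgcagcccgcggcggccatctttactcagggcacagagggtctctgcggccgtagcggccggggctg
CANX, chr5:179698679-179698978, plus strand: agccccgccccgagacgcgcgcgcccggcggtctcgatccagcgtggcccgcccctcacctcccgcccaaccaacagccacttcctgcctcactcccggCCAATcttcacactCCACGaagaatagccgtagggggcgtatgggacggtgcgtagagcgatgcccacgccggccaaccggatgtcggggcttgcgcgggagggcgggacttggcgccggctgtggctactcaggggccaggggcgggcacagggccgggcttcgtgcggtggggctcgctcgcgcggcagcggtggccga
In ALG12 the motif lies 134 to 116 bases before the start site, and in this CANX promoter 151 to 133 bases before it. CANX has 2 further listed promoters that contain the same stretch. The ALG12 motif also lies 80 to 62 bases before the start of CRELD2, a neighbouring ER stress gene read from the opposite strand. Neither ERSE-II (ATTGG, any base, CCACG) nor the unfolded protein response element (TGACGTGG) matched any of the 32 members, and these occur in 0.0696% and 0.927% of genes in the table. The letters CCACG alone, which are part of both ERSE forms, were in the promoters of 8 of the 14 risen members listed and of 11 of the 17 that did not pass, beside 42.1% of all genes. The letters CCAAT alone were in those of 9 of the 14 and 8 of the 17, beside 39.7% of all genes. A match describes letters in these windows and is not evidence of binding.

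Oligosaccharyltransferase held 9 of the 18 genes that rose, TUSC3 among them. Of its 12 subunit genes 9 were higher (75%, beside 17.2% of all genes). None were lower (beside 17.4%), and the median log2 change was 0.52. The enzyme exists in a form built on the catalytic subunit STT3A, which works on chains as they enter the ER, and a form built on STT3B, which can modify sites that were passed over. Summed over the 12 genes, the level was 1835, 1946 and 1905 CPM in APX2009 cells, against 1416, 1413 and 1417 CPM in untreated cells. All 3 APX2009 sums lay above all untreated sums.

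MAGT1, an oxidoreductase subunit of the STT3B form (ENSG00000102158, GRCh38 chromosome X, 77826364 to 77895593), had the smallest p of the members. It was at 143, 130.3 and 118 CPM in APX2009 cells, against 63.4, 62.1 and 62.7 CPM in untreated cells. The groups were far apart, a 2.08-fold rise (log2 change 1.06 ± 0.08 SE, edgeR adjusted p = 6.71e-06). TUSC3 encodes the alternative oxidoreductase subunit and was barely present, with 24, 27 and 25 counts in APX2009 cells and 7, 2 and 3 counts in untreated cells. Its counts were higher in every APX2009 library, and it met the filter on low counts only through those libraries. The ratio of its summed counts per library size was 6.30, with an exact Clopper-Pearson interval (95%) of 3.41 to 12.7 that covers counting error only. The fitted log2 change was 2.62 ± 0.46 (edgeR adjusted p = 0.00154).

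OSTC, a subunit of the STT3A form (ENSG00000198856, chromosome 4, 108650584 to 108667820), was at 85.1, 76.9 and 71.4 CPM in APX2009 cells, against 41.0, 34.3 and 35.7 CPM in untreated cells. It rose 2.11-fold with no overlap (log2 change 1.07 ± 0.09, edgeR adjusted p = 1.48e-05). GENCODE 29 lists 6 pseudogenes named after OSTC, and reads they might share were not examined. KRTCAP2, the other subunit of the STT3A form, had 28.99, 19.4 and 16.9 CPM in APX2009 cells and 20.0, 16.03 and 18.1 CPM in untreated cells. These groups overlapped, and the gene did not pass (log2 change 0.28 ± 0.18, edgeR adjusted p = 0.255).

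The catalytic subunits both rose. STT3B was at 184, 182 and 178 CPM in APX2009 cells, against 116, 114 and 118 CPM in untreated cells, a log2 change of 0.65 ± 0.06 (edgeR adjusted p = 2.69e-05). STT3A was at 198, 222 and 211 CPM in APX2009 cells, against 143, 148 and 146 CPM in untreated cells, a log2 change of 0.53 ± 0.07 (edgeR adjusted p = 2.01e-04). For each of them every APX2009 library exceeded every untreated one.

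Among subunits common to both forms, the ribophorin genes are given in full. RPN1, a ribophorin of the core complex, was at 378, 398 and 406 CPM in APX2009 cells, against 247, 233 and 241 CPM in untreated cells, a 1.64-fold rise (log2 change 0.71 ± 0.06, edgeR adjusted p = 2.75e-05). RPN2, the other ribophorin, was at 379, 445 and 447 CPM in APX2009 cells and 422, 432 and 425 CPM in untreated cells. Its groups overlapped and its log2 change of -0.01 ± 0.08 did not pass (edgeR adjusted p = 0.935). The small core subunits OST4 and DAD1 rose by log2 changes of 0.51 ± 0.10 and 0.46 ± 0.08. DDOST, which helps anchor the complex, rose by 0.24 ± 0.07. TMEM258 had a log2 change of 0.23 ± 0.11 and did not pass (edgeR adjusted p = 0.129). It passed without the filter on low counts and without APX2009 replicate 3 (edgeR adjusted p = 0.0395 and 0.0119; log2 change 0.34 without that library), and its log2 change was 0.11 without APX2009 replicate 1. DDOST no longer passed when any library except APX2009 replicate 1 was left out (edgeR adjusted p of 0.0602 to 0.0874).

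**Figure D2:**
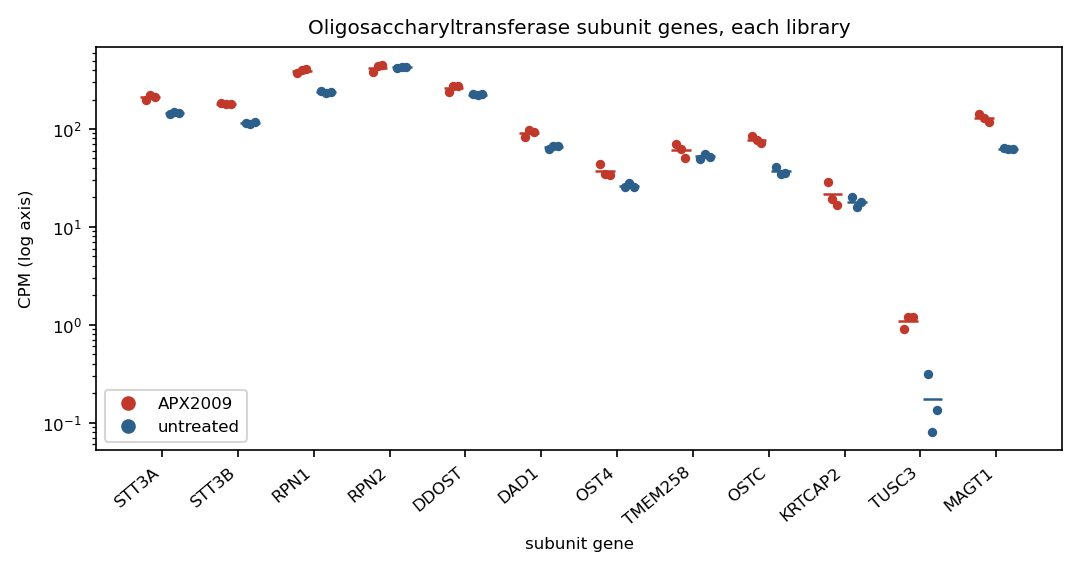
CPM on a log axis for the 12 oligosaccharyltransferase subunit genes, with the 3 APX2009 libraries (red) left of the 3 untreated libraries (blue) and a bar at each mean. CPM are not corrected for gene length, so heights compare groups within a gene. MAGT1, OSTC, RPN1 and STT3B separate clearly while RPN2, TMEM258 and KRTCAP2 overlap.

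Assembly of the glycan on the cytosolic face showed 2 of 6 genes higher (33.3%, beside 17.2% of all genes) and none lower (beside 17.4%). In either direction the share was 33.3%, beside 34.7% of all genes, and the median log2 change was 0.17. ALG2, a mannosyltransferase of the early steps (ENSG00000119523, chromosome 9, 99216426 to 99221956), was at 57.1, 57.5 and 60.3 CPM in APX2009 cells, against 43.5, 39.9 and 42.0 CPM in untreated cells. The groups did not overlap, with a log2 change of 0.48 ± 0.06 (edgeR adjusted p = 3.07e-04). ALG14, which anchors the enzyme adding the second N-acetylglucosamine, was at 6.74, 6.58 and 7.33 CPM in APX2009 cells, against 5.36, 5.18 and 4.67 CPM in untreated cells. It rose by 0.44 ± 0.13 on the log2 scale (edgeR adjusted p = 0.0222), also without overlap, but did not pass without the filter on low counts (edgeR adjusted p = 0.0663) or without untreated replicate 2 or 3 or APX2009 replicate 3 (0.0579, 0.0966 and 0.0609).

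ALG13, the catalytic partner of ALG14, was at 21.3, 19.6 and 16.2 CPM in APX2009 cells and 17.1, 15.3 and 15.2 CPM in untreated cells. Its log2 change of 0.27 ± 0.11 did not pass (edgeR adjusted p = 0.0893), but did without APX2009 replicate 3, the lowest of its group (0.37, edgeR adjusted p = 0.0202). DPAGT1, which starts the glycan and is the target of tunicamycin, was at 24.8, 29.02 and 27.7 CPM in APX2009 cells and 28.3, 26.7 and 26.4 CPM in untreated cells. Its groups overlapped, with a log2 change of -0.00056 and an SE of 0.08 (edgeR adjusted p = 0.996). The mannosyltransferase genes ALG1 and ALG11 had log2 changes of 0.06 ± 0.10 and 0.08 ± 0.13 and did not pass. ALG11 shares 39.7% of its exon length with UTP14C on the same strand, and 12 pseudogenes carry the ALG1 name, so both are uncertain.

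On the luminal face 2 of 5 genes rose (40%, beside 17.2% of all genes) and none fell (beside 17.4%). In either direction the share was 40%, beside 34.7% of all genes, and the median log2 change was 0.24. ALG12, a late mannosyltransferase (ENSG00000182858, chromosome 22, 49900229 to 49918458), was at 36.2, 49.6 and 48.7 CPM in APX2009 cells, against 25.4, 23.5 and 24.1 CPM in untreated cells. All APX2009 libraries were higher, replicate 1 the least, and the log2 change was 0.88 ± 0.12 (edgeR adjusted p = 2.93e-04). ALG12 shares 2085 exon bases, 39.0% of its exon length, with the lincRNA AL671710.1 on the opposite strand. That gene was at 1.17 CPM in APX2009 cells and 0.690 CPM in untreated cells on average. ALG12 also shares 168 exon bases, 3.14% of its exon length, with CRELD2 on the opposite strand. CRELD2 was at 195, 182 and 172 CPM in APX2009 cells, against 25.7, 25.1 and 25.2 CPM in untreated cells. Replicate 1 was thus the highest APX2009 library for CRELD2 and the lowest for ALG12. The strand setting of the counting is not given in the sources used here. The part of CRELD2 or AL671710.1 reads in the ALG12 rise was not tested.

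ALG3, the first mannosyltransferase of the lumen, was at 47.2, 56.8 and 58.0 CPM in APX2009 cells, against 41.5, 36.7 and 41.2 CPM in untreated cells. It rose by 0.44 ± 0.09 on the log2 scale, with no overlap (edgeR adjusted p = 0.00407). ALG8, a glucosyltransferase, was at 20.8, 22.1 and 19.1 CPM in APX2009 cells, against 17.7, 18.0 and 16.8 CPM in untreated cells. These groups did not overlap either, yet the log2 change of 0.24 ± 0.09 missed the threshold (edgeR adjusted p = 0.0538). It passed with total-count scaling, with the 1 CPM filter and without APX2009 replicate 3 (edgeR adjusted p = 0.0489, 0.0446 and 0.0319). The glucosyltransferase ALG6 and the mannosyltransferase ALG9 had log2 changes of 0.19 ± 0.14 and 0.06 ± 0.12 and did not pass.

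Genes for dolichol and its activated sugars had a median log2 change of -0.04. Of these 7 genes, 2 were higher (28.6%, beside 17.2% of all genes) and none lower (beside 17.4%). In either direction the share was 28.6%, beside 34.7% of all genes. ALG5, which makes dolichol-phosphate glucose (ENSG00000120697, chromosome 13, 36949775 to 37000261), was at 29.4, 29.6 and 29.6 CPM in APX2009 cells, against 20.9, 18.0 and 18.6 CPM in untreated cells. It rose 1.54-fold, with no overlap (log2 change 0.62 ± 0.08, edgeR adjusted p = 2.65e-04). DPM1, the catalytic subunit of dolichol-phosphate mannose synthase, was at 60.0, 59.2 and 55.0 CPM in APX2009 cells, against 48.2, 50.7 and 52.9 CPM in untreated cells. Its rise of 0.20 ± 0.07 on the log2 scale (edgeR adjusted p = 0.0378) did not pass with the replicate block, without the filter on low counts or in DESeq2 (adjusted p = 0.0596, 0.0901 and 0.0715). It did not pass either when any library except APX2009 replicate 3 was left out (edgeR adjusted p of 0.0505 to 0.139).

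Its partner subunits DPM2 and DPM3 had log2 changes of -0.04 ± 0.08 and -0.27 ± 0.22 and did not pass. DPM3 passed as lower without APX2009 replicate 1 (-0.53, edgeR adjusted p = 0.0458). MPDU1, needed for the use of dolichol-phosphate sugars in the lumen, was at 14.6, 20.0 and 22.4 CPM in APX2009 cells and 20.9, 22.7 and 23.7 CPM in untreated cells. Its groups overlapped, with replicate 1 low, and it did not pass (log2 change -0.24 ± 0.14, edgeR adjusted p = 0.202). SRD5A3 and DOLK, which reduce and phosphorylate the carrier, had log2 changes of -0.09 ± 0.11 and 0.02 ± 0.09 and did not pass.

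**Figure D3:**
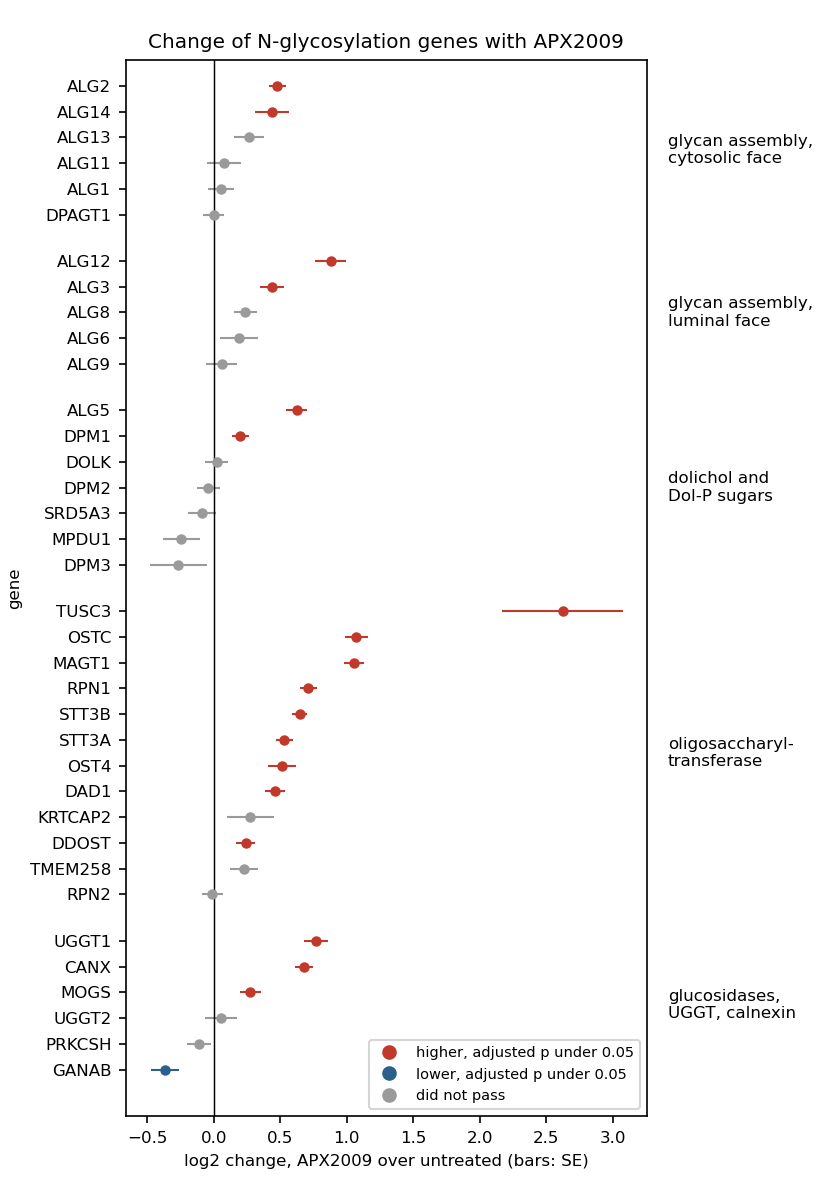
Log2 change of each gene in APX2009 over untreated cells (points, bars are SE), grouped by role with genes that rose in red, the gene that fell in blue and those that did not pass in grey. TUSC3 lies farthest right with the widest error, and GANAB alone is blue, at -0.37.

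Among the 6 genes acting on the transferred glycan, 3 rose (50%, beside 17.2% of all genes) and 1 fell (16.7%, beside 17.4%). Their median log2 change was 0.17. CANX, the membrane lectin calnexin (ENSG00000127022, chromosome 5, 179678628 to 179730925), was at 1544, 1454 and 1463 CPM in APX2009 cells, against 915, 942 and 927 CPM in untreated cells. It rose 1.602-fold, with all APX2009 libraries well above the untreated ones (log2 change 0.68 ± 0.06, edgeR adjusted p = 3.90e-05). UGGT1, the folding sensor that reglucosylates misfolded glycoproteins, was at 176, 177 and 179.7 CPM in APX2009 cells, against 88.4, 116 and 108 CPM in untreated cells. The untreated libraries spread more widely than the treated ones, and the log2 change was 0.77 ± 0.09 (edgeR adjusted p = 1.79e-04).

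UGGT2, its less abundant paralogue, was at 14.3, 12.1 and 11.0 CPM in APX2009 cells and 11.6, 12.9 and 11.5 CPM in untreated cells, which overlap (log2 change 0.06 ± 0.12, edgeR adjusted p = 0.748). The glucosidase genes had calls in both directions. GANAB, the catalytic subunit of glucosidase II (ENSG00000089597, chromosome 11, 62624826 to 62646726), was at 446, 579 and 593 CPM in APX2009 cells, against 697, 687 and 703 CPM in untreated cells. It fell by 0.37 ± 0.10 on the log2 scale with no overlap (edgeR adjusted p = 0.0189), replicate 1 being the lowest. Without replicate 1 the log2 change was -0.25 and still passed, but without untreated replicate 2 or 3 it did not (edgeR adjusted p = 0.0527 and 0.0646).

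PRKCSH, the partner subunit of GANAB, had 281, 341 and 349 CPM in APX2009 cells and 351, 359.5 and 337 CPM in untreated cells. The groups overlapped, and the log2 change of -0.11 ± 0.09 did not pass (edgeR adjusted p = 0.354). MOGS, glucosidase I, which removes the outermost glucose, was at 130.2, 157 and 157 CPM in APX2009 cells, against 119, 126 and 122 CPM in untreated cells. It rose by 0.28 ± 0.08 on the log2 scale (edgeR adjusted p = 0.0233). This call was lost without untreated replicate 1 or 3 or APX2009 replicate 2 or 3 (edgeR adjusted p of 0.0678 to 0.0743).

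Levels were also set per length, as TPM over merged exons, and the order of the genes depends on that choice. CANX averaged 892 ± 2.896 TPM in APX2009 cells and 584 ± 26.4 TPM in untreated cells (SD, n = 3). Over merged exons it was the most abundant of the 36 transcripts in APX2009 cells, above RPN2 at 564 ± 69.6 TPM. In untreated cells RPN2 averaged 593 ± 24.7 TPM, CANX 584 ± 26.4 TPM and GANAB 542 ± 16.2 TPM over merged exons, and RPN2 and CANX did not differ beyond their spread. Over the principal transcript, a length chosen after seeing the data, CANX had rank 1 and RPN2 rank 4 in both groups. PRKCSH then had rank 2 in APX2009 cells, at 640 TPM against 632 TPM for RPN2, and rank 3 in untreated cells, at 722 TPM against 665 TPM for RPN2. TMEM258 averaged 74.6 TPM in APX2009 cells and 67.1 TPM in untreated cells over its 3068 merged exon bases, but 398 TPM in APX2009 cells and 358 TPM in untreated cells over its 575-base principal transcript. TUSC3 was the least abundant over merged exons, at 0.795 ± 0.150 TPM in APX2009 cells and 0.131 ± 0.0866 TPM in untreated cells. Over principal transcripts TUSC3 and ALG14 were level in APX2009 cells, at 2.755 and 2.750 TPM.

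Genes with alternative roles were also compared as ratios of counts within a library, which do not depend on scaling. With 3 libraries a group, the exact two-sided permutation test cannot go below p = 0.1, and each of the 3 ratios reached that value with no overlap. UGGT1 to UGGT2 was 12.3, 14.6 and 16.3 in APX2009 cells, against 7.59, 9.03 and 9.34 in untreated cells, a difference of 0.73 in log2 ratio. STT3A to STT3B was 1.08, 1.22 and 1.19 in APX2009 cells, against 1.24, 1.30 and 1.24 in untreated cells, a log2 difference of -0.12. Without APX2009 replicate 1 that difference was -0.06. MAGT1 to TUSC3 was 155, 107 and 96.6 in APX2009 cells, against 189, 618 and 403 in untreated cells, a log2 difference of -1.63 that rests on the few TUSC3 counts.

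**Figure D4:**
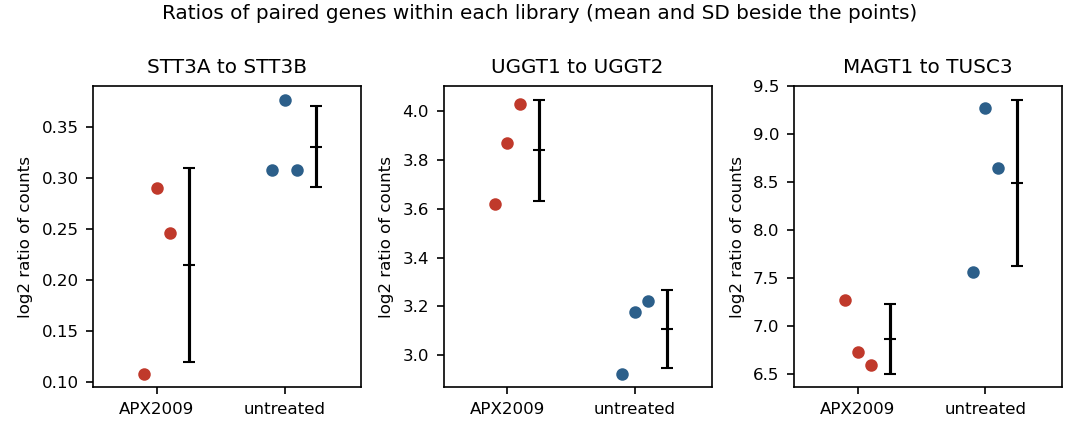
Log2 ratios of counts (plus 0.5) for 3 gene pairs, each point a library, with APX2009 left of untreated and the mean and SD beside the points. Axes differ between panels and do not start at 0. The ratio of UGGT1 to UGGT2 is higher in APX2009 cells, and those of STT3A to STT3B and MAGT1 to TUSC3 are lower.

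Genes next to these in the pathway were described in the same fit, with no test of a list as a whole. These lists were written with earlier results of these data known. Of 16 tested genes that supply sugar donors and dolichol or complete the lipid-linked glycan, 7 rose (43.75%, beside 17.2% of all genes). The list had 2 genes that fell (12.5%, beside 17.4%) and a median log2 change of 0.14. GMPPA, a regulatory subunit of GDP-mannose synthesis, averaged 68.5 ± 0.904 CPM in APX2009 cells and 29.9 ± 0.9499 CPM in untreated cells (SD, n = 3; 2.29-fold, edgeR adjusted p = 6.45e-07). PGM3, of the UDP-N-acetylglucosamine route, rose 1.78-fold, and NUS1, a subunit of the enzyme that makes the dolichol chain, 1.75-fold. The glucosyltransferase ALG10B fell by 0.43 ± 0.15 on the log2 scale (edgeR adjusted p = 0.0424). It did not pass with total-count scaling (edgeR adjusted p = 0.0605) or when any library except APX2009 replicate 1 was left out (0.0928 to 0.132).

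Of 16 ER lectins, mannose-trimming and glycan-removing genes, 10 rose (62.5%, beside 17.2% of all genes) and 1 fell (6.25%, beside 17.4%). Their median log2 change was 0.44. CALR, the soluble partner of calnexin, averaged 1868 ± 43.8 CPM in APX2009 cells and 416 ± 10.9 CPM in untreated cells (4.49-fold, edgeR adjusted p = 2.08e-08). PDIA3, the disulphide isomerase that works with both lectins, rose 2.43-fold, and the lectin ERLEC1 1.83-fold. CALR thus had a larger log2 change than CANX, 2.17 ± 0.07 and 0.68 ± 0.06, a difference between these genes that was not tested. MAN1B1, an ER mannosidase, fell by 0.36 ± 0.07.

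Of 25 tested genes for protein entry into the ER, where oligosaccharyltransferase sits beside the translocon, 19 rose (76%, beside 17.2% of all genes). None fell (beside 17.4%), and the median log2 change was 0.39. The signal peptidase subunits SEC11C and SPCS2 rose 2.59-fold and 1.94-fold, and the translocon-associated SSR3 1.98-fold. Golgi enzymes that remodel N-glycans went both ways, with 4 of 22 tested higher (18.2%, beside 17.2% of all genes), 6 lower (27.3%, beside 17.4%) and a median log2 change of -0.03. Those that rose were the mannosidase MAN1A2 and the N-acetylglucosaminyltransferases MGAT1, MGAT4B and MGAT5, with log2 changes of 0.81, 0.59, 0.56 and 0.21. MGAT5 (edgeR adjusted p = 0.0474) did not pass with RLE scaling or without the filter on low counts (0.0533 and 0.0849), or when any library except APX2009 replicate 1 was left out (0.0533 to 0.146). Among those that fell, the mannosidase MAN2A2 had a log2 change of -0.47. The 6 that fell include MGAT3, which met the filter on low counts only through its untreated libraries. Of 14 genes that use dolichol-phosphate mannose for other products (GPI anchors, O-mannose and C-mannose), 4 rose (28.6%, beside 17.2% of all genes) and none fell (beside 17.4%), with a median log2 change of 0.05. Of these, TMTC1, TMTC3 and POMT2 had log2 changes of 1.10, 0.59 and 0.36.

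**Figure D5:**
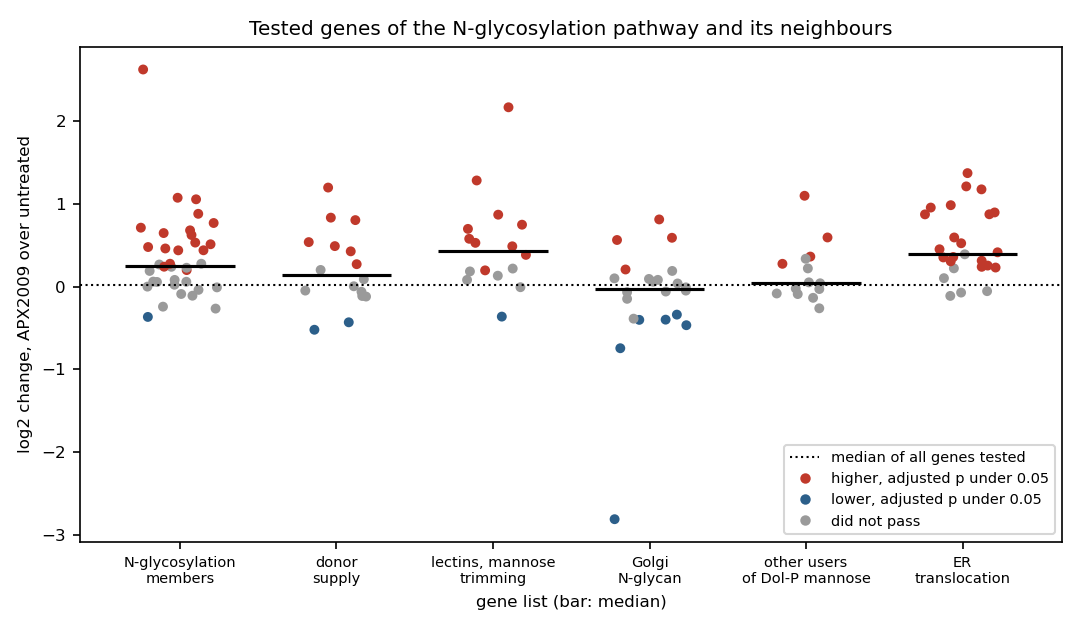
Log2 change of each tested gene in APX2009 over untreated cells, for the 36 members and 5 neighbouring lists, with bars at the list medians and a dotted line at the median of all genes tested. The lists for ER translocation and for lectins and trimming sit above the line, at medians of 0.39 and 0.44, while the Golgi list is centred at -0.03.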

How the data were processed

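RNA sequencing counts for 3 APX2009 and 3 untreated OE33 libraries were used, grouped by their titles. The authors deposited unnormalized read counts for each Ensembl gene, in whole numbers. The table also has 92 ERCC transcripts, left out of library sizes and of every test. The submitters' processing notes name GRCh38 and Subread 1.5.2, featureCounts, STAR 2.5.2b and Trimmomatic 0.36, without their roles. Annotation release, strand setting and filters: not given in the sources used here. Symbols, exon lengths and overlaps came from GENCODE 29 (GRCh38), which matched 57447 of 58051 IDs. Of the 36 members, 17 share exon bases with another annotated gene, 10 of them over 10% of their length. These 10 are DPAGT1, ALG1, ALG11, ALG9, ALG12, DPM2, DDOST, OST4, TMEM258 and KRTCAP2.

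Genes were filtered with filterByExpr, scaled by TMM and tested on treatment alone in edgeR 4.0.16 (quasi-likelihood; R 4.3.3), with Benjamini-Hochberg adjustment over all 14773 tested genes. SE came from the F statistic. Alternatives were RLE, total-count, upper-quartile and ERCC scaling, no filter, at least 1 CPM in 3 libraries, DESeq2 1.42.0, limma 3.58.1 voom, an adjusted p under 0.01, a replicate block and leaving out each library. The step was tested on simulated counts. Ratios of gene pairs used counts plus 0.5 and exact permutation tests with scipy 1.17.1. The members and lists were chosen with earlier results of these data known. All 36 members are named, with full values for the 3 smallest p in each role (4 for oligosaccharyltransferase) and the paired genes. Of each further list, up to 3 genes with the smallest p are named, and those of the rarer direction where these are 4 or fewer. A gene that this rule names is not reported here.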

Additional observations from a re-analysis of the deposited data

How the results depend on the processing

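The number of members that passed was 14 to 20 under the alternatives other than ERCC scaling, against 19, and 13 of the 19 passed under each of them. TUSC3 passed under each except the 1 CPM filter, which left it untested. With ERCC scaling 136 genes passed (129 higher, 7 lower), against 5119, and 1 member. The lists then had 0 calls for donor supply, 1 for lectins and trimming, 1 for the Golgi, 0 for other users of dolichol-phosphate mannose and 0 for ER translocation; the SE of called members rose as given above. At an adjusted p under 0.01, 3057 genes passed. Counting 5 in place of 0.5 in ratios moved MAGT1 to TUSC3 to -0.74 (exact p = 0.2), since few TUSC3 counts carry it. Leaving out 1 library gave 3503 to 5709 genes and 14 to 19 members.

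The same-numbered libraries had correlations of deviations of 0.140, 0.0782 and 0.00599. APX2009 replicates 1 and 2 correlated best with the untreated library of the same number, and APX2009 replicate 3 with untreated replicate 2 (0.115). Deviations were taken from the means of groups of 3 libraries, so these values cannot decide whether the numbers pair them. With the replicate block 5501 genes and 18 members passed. Paired ratio differences, at -0.12, 0.73 and -1.63, equal the unpaired ones by arithmetic in groups of equal size, so they test nothing about pairing.

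The sign turned for 7 members that did not pass, all within 0.09 of 0. DPAGT1 was 0.012 with total counts, 0.0295 with ERCC scaling and 0.0049 with the 1 CPM filter. RPN2 was 0.0022 with total counts and 0.0119 with ERCC scaling, and DPM2 0.0075 with ERCC scaling. Leaving out 1 library gave -0.0443 to 0.0614 for DPAGT1, -0.0515 to 0.0619 for RPN2, -0.0826 to 0.0306 for DPM2, -0.0033 to 0.152 for ALG1, -0.0201 to 0.104 for DOLK, -0.173 to 0.0283 for SRD5A3 and -0.0605 to 0.137 for UGGT2.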

Other observations

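The Golgi list held the largest fall among the lists. MGAT3, which adds the bisecting N-acetylglucosamine, was at 0.187, 0.133 and 0.0958 CPM in APX2009 cells, against 1.12, 1.12 and 0.845 CPM in untreated cells, a log2 change of -2.81 ± 0.41 (edgeR adjusted p = 5.60e-04). The gene was chosen after its values were seen, and its level was low in both groups. Its counts were 5, 3 and 2 in APX2009 cells and 25, 28 and 19 in untreated cells. MGAT3 met the filter on low counts only through those untreated libraries, where it was higher. The N-acetylglucosaminyltransferase pair MGAT4B and MGAT4A had log2 changes of 0.56 ± 0.08 and -0.40 ± 0.08 (edgeR adjusted p = 5.19e-04 and 0.00253), so these paralogues moved in opposite directions. DHDDS, the catalytic partner of NUS1, had a log2 change of 0.20 ± 0.10 and did not pass (edgeR adjusted p = 0.144).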
